A study of Arabidopsis thaliana with 12 samples.

Results

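Jasmonate biosynthesis was followed through 10 loci, chosen by locus identifier for their place in the pathway, with earlier results of these data known. They are the lipoxygenase genes LOX2 (AT3G45140), LOX3 (AT1G17420) and LOX4 (AT1G72520), the allene oxide synthase gene AOS (AT5G42650), the allene oxide cyclase genes AOC1 (AT3G25760), AOC2 (AT3G25770), AOC3 (AT3G25780) and AOC4 (AT1G13280), the OPDA reductase gene OPR3 (AT2G06050) and JAR1 (AT2G46370), which encodes the enzyme that conjugates jasmonic acid to isoleucine. They are 10 of the 32627 loci with a value on the arrays. All 10 had a value on every array, and no filter on low values was applied.

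Jasmonates are lipid hormones made in leaves after wounding, insect feeding and infection by necrotrophic fungi. Synthesis starts in the chloroplast, where 13-lipoxygenases add oxygen to linolenic acid, AOS converts the hydroperoxide to an unstable allene oxide and the AOC enzymes cyclize it to 12-oxo-phytodienoic acid (OPDA). OPDA moves to the peroxisome, where OPR3 reduces it and rounds of beta-oxidation shorten the side chain to jasmonic acid. JAR1 then forms jasmonoyl-isoleucine, the hormone that the receptor COI1 binds. Jasmonate and salicylic acid signaling are widely known to restrain each other in Arabidopsis leaves.

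Leaves came from 4-week-old Arabidopsis plants. All of them, controls included, carried DEX-MKK4DD, in which dexamethasone (DEX) switches on the promoter of a permanently active MKK4, a kinase that activates MPK3 and MPK6. The plants were otherwise wild type (Col) or carried sid2-2 (sid2), a mutation of the isochorismate synthase gene SID2, on which most salicylic acid depends. Leaves were infiltrated with 2 µM DEX, or with 0.1% ethanol as mock, and collected after 24 h. The 4 groups, mock and DEX in Col and mock and DEX in sid2, had 3 arrays each, numbered by independent experiment. No DEX-treated plants without the transgene were analysed here, so a response to MKK4DD and a response to DEX itself cannot be told apart. The values are RMA expression intensities, given below as log2, and each array carried the RNA of 1 sample. How many plants or leaves were pooled for a sample is not given in the sources used here.

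The 12 arrays were alike as a whole, with median intensities from 255 to 289 and correlations from 0.985 to 0.995 within groups. MKK4 rose with DEX by 1.92 in Col and 2.03 in sid2 on the log2 scale, and its probes may read the transgene as well as the native gene. FRK1 (AT2G19190), a receptor kinase gene commonly used as a marker of MAP kinase output, rose by 5.94 and 6.13. SID2 (AT1G74710) had log2 levels of 9.72 to 10.36 in Col mock and of at most 6.26 on all sid2 arrays. The array labelled Col DEX replicate 2 gave 6.08 for SID2, where the other arrays of its group gave 12.48 and 12.26. Its SID2 level thus went against the label. The results for the 10 genes are also given without this array, and the effects on the single further pathway loci only with it.

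Leaf identity and tissue state were checked on marker genes. The 6 mesophyll and photosynthesis markers had mock group means of 10.36 to 14.36 and were all lower in every DEX array than in every mock array of the same background, with a median log2 change of −2.58 in Col and −2.06 in sid2, and 5 and 4 of them were called. Of the 3 epidermis markers 3 were called lower in Col and 2 in sid2, and of the 2 guard cell markers 1 and 2. None of the 4 phloem and xylem markers was called in either background. Of these, SUC2 of the phloem (0.52 in Col and 0.42 in sid2) and XCP1 of the xylem (0.68 and 0.75) were higher without overlap. XCP2 of the xylem was lower without overlap (−0.41 and −0.44). Over all loci, 28.7% were called in Col and 27.8% in sid2. The groups did not overlap for 57.7% and 60.6% (26.8% and 28.3% lower). The flower markers AP1 and PI had group means of at most 3.92, under the lower quartile of all loci, 4.15 to 4.20. Of the 3 root markers, PYK10 was called lower in both backgrounds, with changes of −3.95 in Col and −3.35 in sid2, and the group means of COBL9 and EXPA7 were at most 4.44. The senescence marker SAG12 had changes of 0.80 in Col, with no overlap, and 0.35 in sid2, and was not called. Its group means were also low, from 3.81 in sid2 mock to 4.63 in Col DEX, under or near that quartile. Fewer cells of a type and less RNA per cell cannot be told apart in bulk leaf RNA, and the part of these marker changes in the results below was not tested.

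LOX4 was the only member that was called higher with DEX in both backgrounds, at an adjusted p under 0.01 with more than a 2-fold change. It encodes a 13-lipoxygenase of the first step and is needed together with LOX3 for male fertility. In Col its log2 levels were 10.06, 11.39 and 10.61 in mock and 13.22, 13.37 and 13.27 with DEX, which are intensities of 1068 to 2684 and of 9572 to 10569. In sid2 they were 10.37, 10.52 and 11.50 in mock and 13.02, 13.32 and 13.16 with DEX. All DEX arrays stood above all mock arrays in each background, and the DEX arrays were close together while the mock arrays spread over more than 1 log2 unit. LOX4 rose by 2.60 ± 0.30 (SE) in Col, 6.06-fold, with an adjusted p of 1.98e-05 (limma, n = 3 per group). In sid2 it rose by 2.37 ± 0.30, 5.16-fold, with an adjusted p of 4.33e-05. The rise was seen in 3 of 3 same-numbered pairs of arrays in each background, from 1.98 to 3.16 in Col and from 1.66 to 2.80 in sid2.

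LOX2 and LOX3, the other 13-lipoxygenase genes of the set, did not pass the test. LOX2 encodes the chloroplast enzyme that makes most of the jasmonate of wounded leaves. Its log2 levels were 14.34, 14.18 and 14.43 in Col mock, 14.50, 14.27 and 14.28 in Col DEX, 14.33, 14.34 and 14.33 in sid2 mock and 14.44, 14.18 and 14.20 in sid2 DEX. The groups overlapped, and the DEX effect (DEX minus mock) was 0.03 in Col (95% interval −0.18 to 0.25, adjusted p = 0.799, limma) and −0.06 in sid2 (−0.28 to 0.15, adjusted p = 0.626). LOX2 lay only 0.27 to 0.72 below the highest value of each array, with 7 to 40 loci at or above it, LOX2 included, so the intervals hold only as far as the array still responds to more RNA at that level. LOX3 had log2 levels of 10.52, 11.01 and 10.53 in Col mock and 10.99, 11.52 and 10.93 in Col DEX. In sid2 it had 10.55, 10.47 and 11.60 in mock and 10.88, 11.54 and 10.77 with DEX, where mock replicate 3 was the highest array of all 12. The DEX effect on LOX3 was 0.46 ± 0.30 in Col (interval −0.19 to 1.12, adjusted p = 0.216) and 0.19 ± 0.30 in sid2 (−0.47 to 0.84, adjusted p = 0.629), so that neither a 2-fold rise in Col nor no change was outside its interval. LOX3 and LOX4 are close paralogs, and whether their probes tell them apart was not examined.

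**Figure D1:**
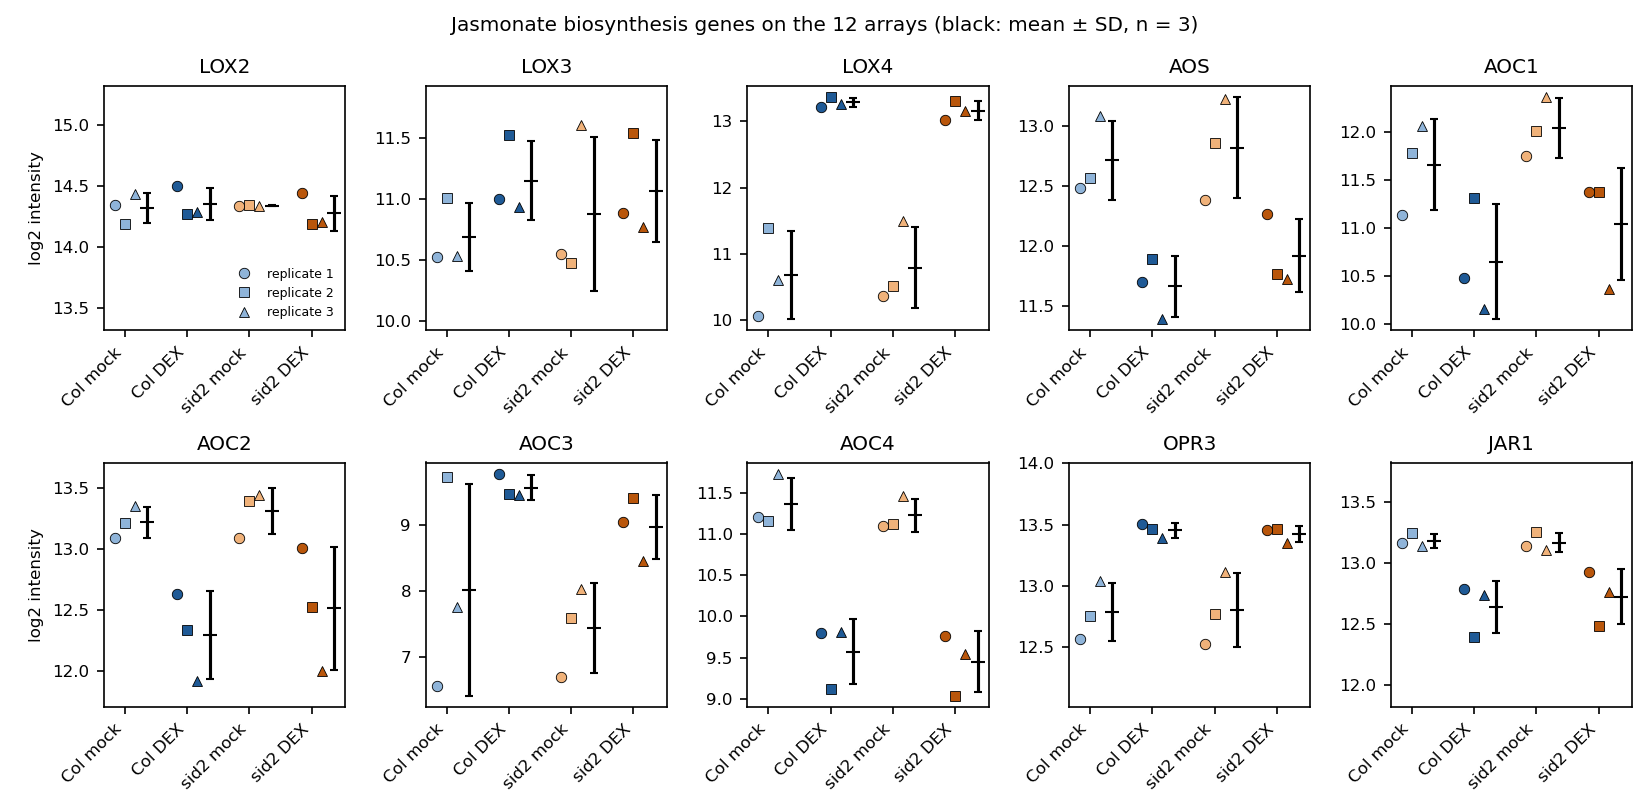
Log2 intensity of the 10 jasmonate biosynthesis genes (y axes, a scale of its own for each gene) on the 12 arrays, by group (x axes, 3 arrays each); symbols mark the replicate number, and black bars are the mean ± SD. LOX4 lies at 10.06 to 11.50 on all mock arrays and at 13.02 to 13.37 on all DEX arrays, AOC4 lies at 11.09 to 11.73 and at 9.04 to 9.81, and AOC3 in Col mock is spread from 6.56 to 9.74.

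AOS, the single gene for the next enzyme, was lower with DEX. Its log2 levels in Col were 12.48, 12.57 and 13.08 in mock and 11.70, 11.89 and 11.39 with DEX. In sid2 they were 12.38, 12.85 and 13.22 in mock and 12.26, 11.76 and 11.72 with DEX. The groups did not overlap in either background, although sid2 DEX replicate 1 was only 0.11 below sid2 mock replicate 1. AOS fell by 1.05 on the log2 scale in Col (SE 0.24), to 0.483 of the mock level (adjusted p = 0.00299, limma). In sid2 the change was −0.90 ± 0.24, with an adjusted p of 0.00780 but less than the 2-fold change a call required. The same-numbered pairs ranged from −1.70 to −0.67 in Col, and in sid2 the pair numbered 1 gave −0.11 where that numbered 2 gave −1.09. The Col value lay just past the 2-fold limit, and its call was lost without Col mock replicate 3 (−0.86, adjusted p = 0.0162) or without Col DEX replicate 3 (−0.87, adjusted p = 0.0179), while AOS was called in sid2 without sid2 mock replicate 1 (−1.13) or without sid2 DEX replicate 1 (−1.12).

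The 4 allene oxide cyclase genes did not change alike. AOC4 fell in both backgrounds, AOC1 and AOC2 were lower with DEX by about the 2-fold limit without being called, and AOC3 had higher mean levels with DEX that were not called. AOC1, AOC2 and AOC3 are neighbors without another protein-coding gene between them in the RefSeq gene table, on chromosome 3, and AOC4 is on chromosome 1. The AOC genes are paralogs of similar sequence, and whether the probes of 1 also bind the transcripts of another was not examined.

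AOC4 had log2 levels of 11.20, 11.15 and 11.73 in Col mock and of 9.80, 9.11 and 9.81 in Col DEX. In sid2 the levels were 11.09, 11.12 and 11.46 in mock and 9.76, 9.04 and 9.54 with DEX. The mock and DEX groups were more than 1 log2 unit apart in each background. AOC4 fell to 0.289 of the mock level in Col (log2 change −1.79 ± 0.20, adjusted p = 1.57e-05, limma) and to 0.292 in sid2 (−1.77 ± 0.20, adjusted p = 1.75e-05). Replicate 2 had the lowest DEX array in each background, and the pairs ranged from −2.04 to −1.40 in Col and from −2.08 to −1.33 in sid2.

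AOC2 had log2 levels of 13.09, 13.21 and 13.35 in Col mock and of 12.63, 12.34 and 11.92 in Col DEX. In sid2 they were 13.09, 13.40 and 13.44 in mock and 13.01, 12.53 and 12.00 with DEX. Every DEX array was below every mock array, by as little as 0.08 for replicate 1 of sid2. The DEX effect was −0.92 ± 0.23 in Col (adjusted p = 0.00523, limma) and −0.80 ± 0.23 in sid2 (adjusted p = 0.0123), both under 2-fold. AOC2 was called in Col without mock replicate 1 (−1.03) or without DEX replicate 1 (−1.08), and in sid2 without DEX replicate 1 (−1.05).

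AOC1 gave 11.13, 11.78 and 12.06 in Col mock and 10.48, 11.32 and 10.16 in Col DEX, which overlapped. In sid2 it gave 11.74, 12.01 and 12.36 in mock and 11.37, 11.38 and 10.37 with DEX, which did not. The DEX effect was −1.01 ± 0.34 in Col (adjusted p = 0.0261, limma) and −0.9995 ± 0.34 in sid2 (adjusted p = 0.0277), neither of them called. Replicate 3 carried the widest pairs, −1.90 in Col and −1.99 in sid2, against −0.65 and −0.47 for the other pairs of Col and −0.37 and −0.63 for those of sid2.

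AOC3 was widely spread in mock leaves, with log2 levels of 6.56, 9.74 and 7.76 in Col and 6.69, 7.59 and 8.04 in sid2. With DEX it had 9.78, 9.47 and 9.46 in Col and 9.05, 9.41 and 8.45 in sid2. The Col groups overlapped because mock replicate 2 was as high as the DEX arrays, whereas the sid2 groups did not overlap. The DEX effect was 1.55 ± 0.59 in Col (adjusted p = 0.0434, limma) and 1.53 ± 0.59 in sid2 (adjusted p = 0.0461), and it was not called in either. The pairs were 3.23, −0.27 and 1.70 in Col and 2.36, 1.83 and 0.42 in sid2.

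The result for AOC3 rested on a single mock array. Without Col mock replicate 2 the DEX effect was 2.38 in Col (adjusted p = 0.000849, limma). The value in sid2 stayed at 1.53 and had an adjusted p of 0.00554 with the spread estimated on the remaining arrays, so that AOC3 was called in both backgrounds. The same array was the highest of its group for 25.5% of all loci. Among them were the jasmonate catabolic gene CYP94B3 (8.95, against 4.35 and 5.43) and FRK1 (7.63, against 6.01 and 5.19). ORA47 (AT1G74930), the gene for a transcription factor of the jasmonate response that was chosen after its values were seen, stood at 12.50 there against 7.26 and 8.38. In sid2 mock, replicate 2 was also the highest for these genes, with 8.19 for CYP94B3, 6.70 for FRK1 and 11.43 for ORA47, but not for AOC3. For VSP1 and VSP2, genes of the jasmonate response, Col mock replicate 2 was instead the lowest of its group. It gave 9.13 for VSP1 (against 10.84 and 12.48) and 7.51 for VSP2 (against 10.71 and 12.21). It was the lowest also for HPL1, a gene of another oxylipin branch, with 9.32 against 10.96 and 12.01. They were chosen after their values were seen, and 38.6% of all loci were lowest on that array. The part of that experiment's mock treatment in the AOC3 values was not tested.

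OPR3, whose product reduces OPDA in the peroxisome, had higher levels with DEX by less than 2-fold. Its log2 levels in Col were 12.56, 12.75 and 13.03 in mock and 13.51, 13.46 and 13.39 with DEX. In sid2 they were 12.52, 12.77 and 13.12 in mock and 13.46, 13.47 and 13.35 with DEX. The groups did not overlap, and the DEX arrays stood at 13.35 to 13.51 across both backgrounds. The DEX effect was 0.67 ± 0.14 in Col (1.59-fold, adjusted p = 0.00199, limma) and 0.62 ± 0.14 in sid2 (1.54-fold, adjusted p = 0.00336), and the 95% interval in Col reached up to 0.99, short of 2-fold.

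JAR1, for the final conjugation to isoleucine, had lower levels with DEX, also by less than 2-fold. It had log2 levels of 13.16, 13.24 and 13.14 in Col mock, 12.78, 12.39 and 12.74 in Col DEX, 13.14, 13.25 and 13.11 in sid2 mock and 12.93, 12.48 and 12.76 in sid2 DEX. Mock and DEX did not overlap, and replicate 2 had the lowest DEX array in each background. The DEX effect was −0.54 ± 0.13 in Col (adjusted p = 0.00325, limma) and −0.44 ± 0.13 in sid2 (adjusted p = 0.0113).

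**Figure D2:**
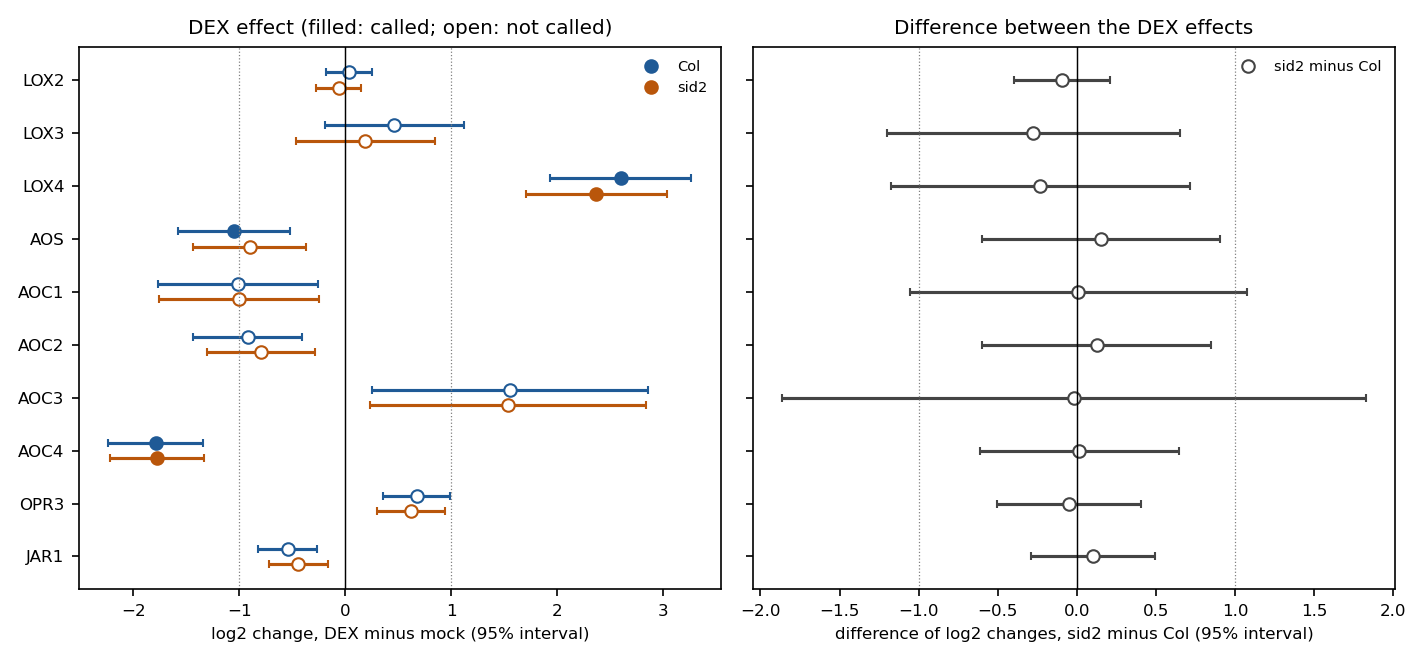
DEX effect on each gene in Col and sid2 (left, log2 change, DEX minus mock) and the difference between these effects (right, sid2 minus Col), with 95% intervals from the limma fit; filled points were called (adjusted p under 0.01 and more than 2-fold) and dotted lines mark 2-fold. The effects run from −1.79 (AOC4) to 2.60 (LOX4) in Col, and all 10 intervals of the difference include 0.

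Counted over the pathway, 1 of the 10 loci rose (LOX4) and 2 fell (AOS and AOC4) in Col, at an adjusted p under 0.01 with more than a 2-fold change. In Col, 28.7% of all loci were called by that rule, 13.8% higher and 15% lower, so that 3 of 10 was near the background. In sid2, 1 rose (LOX4) and 1 fell (AOC4), where 27.8% of all loci were called, 13% higher and 14.8% lower. With no limit on the fold, 6 of the 10 had an adjusted p under 0.01 in Col, beside 46.5% of all loci, and 4 in sid2, beside 45.3%. The mock and DEX groups did not overlap for 2 higher and 4 lower loci in Col, beside 57.7% of all loci (30.9% higher and 26.8% lower), and for 3 higher and 5 lower loci in sid2, beside 60.6% (32.3% higher and 28.3% lower). The median log2 change was −0.25 in each background, beside 0.04 for all loci in each. Without overlap and with the same sign in both backgrounds, LOX4 and OPR3 were higher and AOS, AOC2, AOC4 and JAR1 were lower. The share of all loci that met this joint rule was not counted. With 57.7% and 60.6% of all loci not overlapping in the single backgrounds, these names describe the loci and not a pattern of the pathway.

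The comparison of the backgrounds asked whether the response needed SID2. None of the 10 differences between the DEX effects (sid2 minus Col) was called, and none of the 32627 loci was (0%), while 734 of all loci (2.25%) and 0 of the 10 had an unadjusted p under 0.05. The differences ran from −0.27 (LOX3) to 0.15 (AOS), the smallest unadjusted p was 0.502 (LOX2), and all 10 intervals included 0. The width of the intervals differed between genes. The interval was −0.40 to 0.21 for LOX2, −0.50 to 0.40 for OPR3, −0.29 to 0.50 for JAR1 and −0.62 to 0.65 for AOC4, whereas for LOX4 it was −1.17 to 0.71 and for AOC3 −1.86 to 1.83. It stayed within a 2-fold difference for 6 of the 10, so that for LOX3, LOX4, AOC1 and AOC3 a 2-fold difference was not outside it.

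The levels in sid2 and Col were also compared within each treatment, and no difference of a member was called. The comparison in DEX includes the array labelled Col DEX replicate 2. In mock, the sid2 effect (sid2 minus Col) ran from −0.58 (AOC3) to 0.38 (AOC1), 0 of 10 was called beside 0.00306% of all loci, 0 of 10 had an unadjusted p under 0.05 beside 6.95%, and the smallest adjusted p was 0.843 (limma). In mock the backgrounds overlapped for all 10, where they did not for 10.2% of all loci. In DEX it ran from −0.60 (AOC3) to 0.39 (AOC1), 0 of 10 was called beside 0% of all loci, 0 of 10 had an unadjusted p under 0.05 beside 5.77%, and the smallest adjusted p was 0.969. AOC1 was higher in sid2 in all 3 same-numbered pairs of mock and of DEX arrays, by 0.06 to 0.89. AOC3 was the only member whose groups did not overlap between the backgrounds, with all sid2 DEX arrays (8.45 to 9.41) below all Col DEX arrays (9.46 to 9.78), as was the case for 6.48% of all loci (10.8% in either direction).

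Leaving out the array labelled Col DEX replicate 2 changed no call of a member in any of the 5 comparisons. Without it, the DEX effect in Col was 2.60 for LOX4, −1.19 for AOS and −1.62 for AOC4, and 27.7% of all loci were called. Among the members that were not called, JAR1 moved to −0.43 (adjusted p = 0.0174, limma) and AOC1 to −1.31 (adjusted p = 0.0101), which missed the p threshold. For AOC1 the difference between the DEX effects moved from 0.01 to 0.31 and the sid2 effect in DEX from 0.39 to 0.69, and for AOC3 they moved to −0.25 and −0.83. The sid2 effect in DEX moved to −0.30 for AOC4 and to 0.39 for AOS, and the smallest adjusted p of a member in these comparisons was 0.866 (AOC1). Over all loci, 3 were called for the difference and 38 for the sid2 effect in DEX without that array, against 0 and 0 with it, and none of them was a member. SID2 itself rose by 2.25 in Col without that array (adjusted p = 2.71e-06), against 0.18 ± 1.19 with it.

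**Figure D3:**
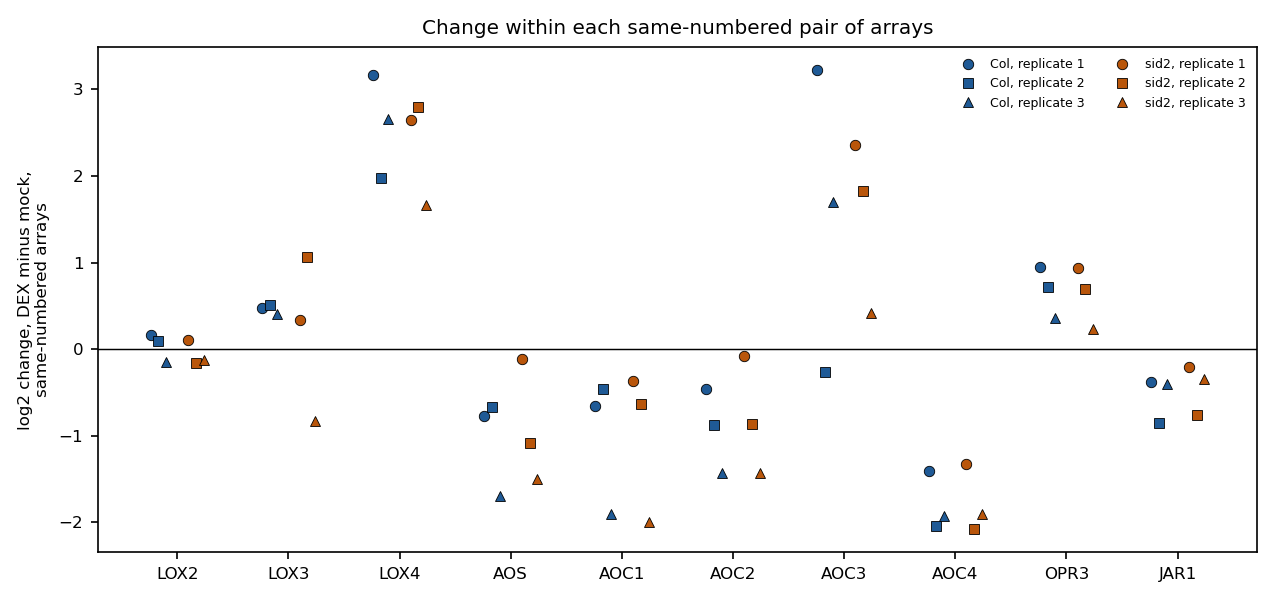
Log2 change (y axis, DEX minus mock) of each of the 10 genes within the 6 same-numbered pairs of arrays, 3 in Col and 3 in sid2; symbols mark the replicate number. All 6 pairs lie above 0 for LOX4 (1.66 to 3.16) and OPR3 and below 0 for AOS, AOC1, AOC2, AOC4 and JAR1, while AOC3 spans −0.27 to 3.23 and LOX3 −0.84 to 1.07.

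The experiments differed for these genes within groups. Among the Col mock arrays, replicate 3 was the highest for 6 of the 10 genes (43.7% of all loci) and replicate 1 the lowest for 7 (29.5% of all loci). In sid2 mock, replicate 3 was the highest for 8 (31%) and replicate 1 the lowest for 8 (27.1%). With DEX the order was another, and replicate 3 was the lowest for 6 of 10 genes in each background (31.1% and 32% of all loci), namely LOX3, AOS, AOC1, AOC2, AOC3 and OPR3. The pairs numbered 3 accordingly gave the most negative changes of AOS, AOC1 and AOC2 and the smallest change of OPR3 in both backgrounds. The median SD over the 10 genes was 0.30 in Col mock, 0.23 in Col DEX, 0.30 in sid2 mock and 0.34 in sid2 DEX, beside 0.20, 0.16, 0.16 and 0.16 for all loci.

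A list of 51 other loci of the jasmonate pathway was set beside the enzymes. They too were chosen with earlier results of these data known, so their share of calls is no test against that of all loci. In Col 12 rose and 11 fell (45.1%) and in sid2 12 rose and 11 fell (45.1%), beside 28.7% and 27.8% of all loci. In both backgrounds 11 were called higher and 11 lower, with 0 in opposite directions and 27 called in neither. Of all 32627 loci, 3995 were called higher and 4579 lower in both, with 0 in opposite directions and 22748 in neither. The counts of calls in the role lists below stand beside the same 28.7% in Col and 27.8% in sid2. Their median log2 change was 0.32 in Col and 0.15 in sid2. No difference between the DEX effects was called for these loci, and 3 of the 51 had an unadjusted p under 0.05.

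Upstream of the 10 enzymes, 2 of 5 genes for the supply of linolenic acid fell in both backgrounds and none rose. Of the 5, DAD1 (AT2G44810) and DGL (AT1G05800) had group means of 3.65 to 4.31, under or near the lower quartile of all loci, 4.15 to 4.20. A fall of these genes could hardly show on the arrays. FAD7 (AT3G11170), a chloroplast desaturase that makes linolenic acid, fell with log2 changes of −2.01 in Col (adjusted p = 2.39e-06, limma) and −2.09 in sid2. FAD3 (AT2G29980), the desaturase of the endoplasmic reticulum, had changes of −1.49 and −1.12. Of the 3 remaining lipoxygenase genes, LOX1 (AT1G55020), a 9-lipoxygenase, fell with changes of −1.32 and −1.58, and LOX6 (AT1G67560), the remaining 13-lipoxygenase, with −1.13 and −1.05, so that of the 13-lipoxygenase genes LOX4 rose, LOX6 fell and LOX2 and LOX3 were not called.

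Of 4 genes of other oxylipin branches, 2 rose and 1 fell in Col, and 3 rose and 1 fell in sid2. The transcript of HPL1 (AT4G15440), a hydroperoxide lyase gene, fell. Its log2 change was −4.62 ± 0.67 in Col (adjusted p = 0.000111, limma) and −3.50 ± 0.67 in sid2 (adjusted p = 0.000895). Whether HPL1 gives an active enzyme in plants of this accession was not examined. DOX1 (AT3G01420), for an alpha-dioxygenase that acts on fatty acids directly, rose by 3.80 in Col and 2.38 in sid2 from mock means of 3.94 and 4.14, which lay under the lower quartile of all loci, so that its folds start near the floor of the arrays. The difference between the DOX1 effects was −1.42 (unadjusted p = 0.00201), and it was not called.

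Around OPR3, none of the 3 genes for OPDA transport and activation was called. Of the 9 genes of peroxisomal beta-oxidation, 7 had all DEX arrays above all mock arrays in each background, beside 30.9% of all loci in Col and 32.3% in sid2, with a median change over the list of 0.63 in Col and 0.62 in sid2, but none rose by more than 2-fold. KAT5 (AT5G48880), a thiolase, fell, with a log2 change of −4.38 in Col (adjusted p = 1.17e-07, limma) and −4.20 in sid2.

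Beyond JAR1, of the 11 genes for conversion and breakdown of jasmonates 6 rose and 1 fell in Col, and 5 rose and 1 fell in sid2. CYP94B3 (AT3G48520), a cytochrome P450 that hydroxylates jasmonoyl-isoleucine, rose by 4.68 ± 0.89 in Col (adjusted p = 0.000823, limma) and by 4.80 ± 0.89 in sid2. JMT (AT1G19640), which methylates jasmonic acid, fell by 4.29 in each background, from mock levels of 10.82 to 12.26 to DEX levels of 6.03 to 8.49. CYP94B1 (AT5G63450), for another hydroxylase of jasmonoyl-isoleucine and chosen after its values were seen, had changes of −1.23 and −1.84 with no overlap between mock and DEX, and was not called.

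In perception and transcription 1 of 5 genes was called. MYC4 (AT4G17880), for a transcription factor of the jasmonate response, fell, with log2 changes of −3.06 in Col and −3.11 in sid2 (adjusted p = 2.97e-08 and 2.91e-08, limma). Its relative MYC2 (AT1G32640) had a change of −0.71 in Col (adjusted p = 0.0250) and −0.59 in sid2 (adjusted p = 0.0580), and the receptor gene COI1 (AT2G39940) of −0.14 and 0.01, none of them called.

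The response genes are given by branch, and the difference between the branches was not tested. Of the 5 genes of the MYC branch, 3 were called lower and none was called higher in each background. Among those called were the vegetative storage protein genes VSP2 (AT5G24770), with −4.92 in Col and −5.47 in sid2, and VSP1 (AT5G24780), with −4.41 and −4.50. VSP2 mock levels were widely spread, with 10.71, 7.51 and 12.21 in Col and 10.39, 9.96 and 12.39 in sid2, against 4.96 to 5.71 with DEX. TAT3 (AT2G24850) of this list, chosen after its values were seen, was not called, with 0.66 in Col and −0.48 in sid2. Its levels were 9.45, 10.19 and 10.71 in Col mock and 11.76, 8.78 and 11.79 in Col DEX. The low value is that of Col DEX replicate 2, whose SID2 level went against its label, and sid2 DEX gave 8.35 to 8.72. The part of that array in the TAT3 result was not tested. Of the 6 genes of the ERF branch 4 rose and none fell, among them the transcription factor genes ERF1 (AT3G23240), by 6.03 in Col and 6.40 in sid2, and ORA59 (AT1G06160), by 5.75 and 5.88. The defensin gene PDF1.2a (AT5G44420), a common readout of that branch, had a change of −1.40 in Col (adjusted p = 0.0593, limma) and −0.92 in sid2 (adjusted p = 0.203) and was not called. PDF1.2b (AT2G26020), the related defensin gene of the list, was chosen after its values were seen and had changes of −3.07 in Col (adjusted p = 0.0124) and −2.84 in sid2 (adjusted p = 0.0190), with no overlap between mock and DEX, and was not called either.

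**Figure D4:**
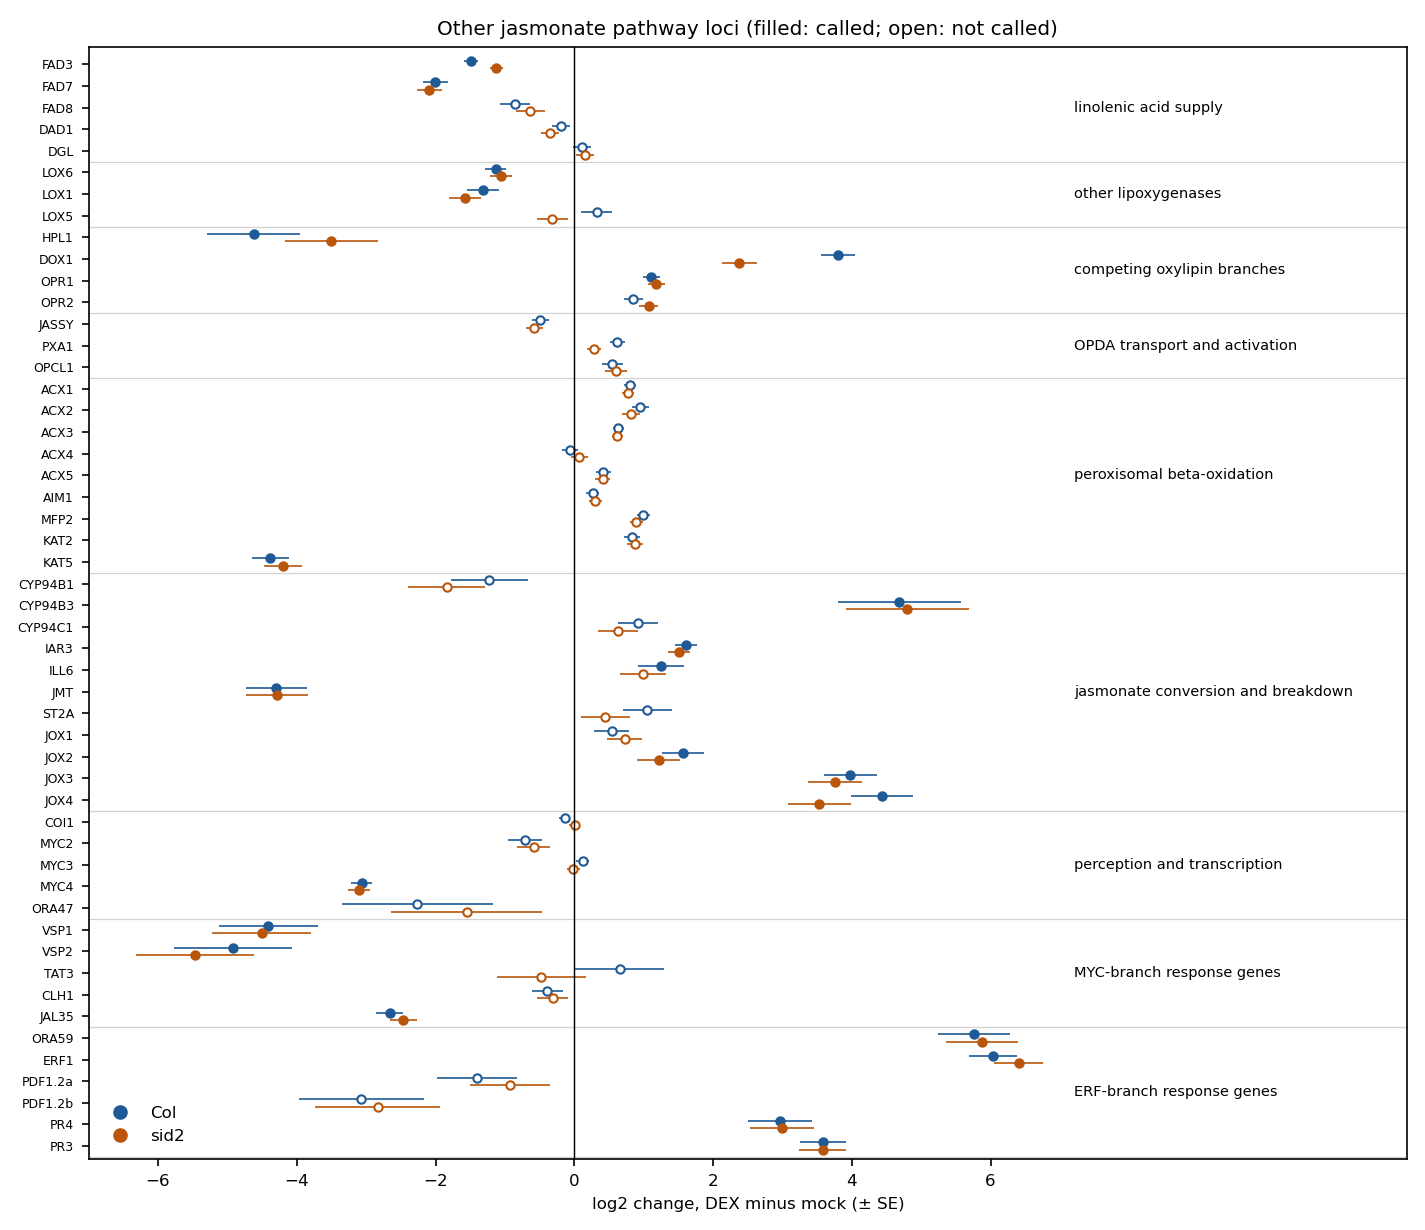
DEX effect (x axis, log2 change ± SE) on the 51 other loci of the jasmonate pathway in Col and sid2, by role (y axis); filled points were called and open points were not. The largest values are 6.40 for ERF1 and −5.47 for VSP2, both in sid2. Of the 51 loci, 22 were called in the same direction in both backgrounds, beside 3995 higher and 4579 lower of all 32627.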

How the data were processed

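Total RNA of the 12 leaf samples was hybridized to NimbleGen arrays designed on the TAIR9 gene models. The authors reduced the probe signals to transcript values by the robust multi-array average (RMA) and kept, for each gene, its transcript with the higher value. As deposited, these were linear intensities, 1 per locus and array, and 0 were missing. Neither the version of the software nor any joint normalization with other arrays is given in the sources used here. RMA makes arrays nearly alike in distribution, so a change in total RNA does not show.

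Intensities were converted to log2, and a model with 4 groups was fitted to 32627 loci and 12 arrays with limma 3.58.1 in R 4.3.3, with the replicate number as a random block (statmod 1.5.0, consensus correlation 0.208), as in the study's methods. P-values were two-sided and adjusted over all loci by Benjamini and Hochberg's method in place of the study's q-values. Calls required an adjusted p under 0.01 and a change of more than 2-fold. The labels number the replicates alike in all groups, and the methods name 3 independent experiments. Deviations of same-numbered arrays from their group means correlated at 0.174 to 0.303 between mock and DEX in Col, at 0.100 to 0.215 in sid2, and at 0.387 to 0.733 between the backgrounds within a treatment. The fit was tested on simulated data before use.

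The 10 loci and the 51 further pathway loci were chosen with earlier results of these data known. From each role list the 2 loci with the largest mean change among those called in both backgrounds are named, with MYC2, COI1, VSP2, PDF1.2a and LOX6 in any case. RefSeq's TAIR10.1 gene table, which held 31993 of the loci, was used for names and neighbors alone. Alternatives were leaving out each array or all arrays numbered 2, other blocks, scalings, filters, offsets, weights, priors and thresholds.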

Additional observations from a re-analysis of the deposited data

Results flagged for a closer look

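LOX5 (AT3G22400), like LOX1 a 9-lipoxygenase gene among the further pathway loci, was flagged. Its DEX effect had opposite signs in the backgrounds, in all 3 same-numbered pairs of each. The log2 change was 0.32 ± 0.22 in Col and −0.32 ± 0.22 in sid2, neither of them called. The Col value includes the array labelled Col DEX replicate 2, at 9.57 against 10.55 and 10.39. For LOX5, replicate 2 was the lowest array in each of the other groups as well. The difference between the effects was −0.64, with an unadjusted p of 0.0657 and an adjusted p over all loci of 0.999996 in limma, and it was not called. Groups of 3 arrays are too small for the test of outlying arrays used here, so none was run for AOC3 in Col mock.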

How the results depend on the processing

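Under 25 alternatives, no called change of the 10 genes reversed. LOX4 was called in both backgrounds under all of them, and AOC4 under all but a 4-fold limit. With a 4-fold limit 1 gene was called in Col and 1 in sid2 (4485 and 4303 of all loci), and at an adjusted p under 0.05 with no fold limit 8 and 8 (18240 and 17989 of all loci). Leaving out single arrays gave 2 to 4 called genes in Col and 2 to 4 in sid2, where 4 came without sid2 DEX replicate 1. The call of AOS in Col was also lost without all arrays numbered 2 (−1.24, adjusted p = 0.0201), with a common median (−0.94), with array weights (−0.96) and when limma tested against 2-fold (adjusted p = 1). The 0 calls of the 10 genes for the difference between the DEX effects and for both sid2 effects held under every alternative. With no replicate block, or with the replicate as a fixed block, 3 genes were called in Col and 2 in sid2, and the block changed no call of a member. Of the further pathway loci 39 were called in Col and 39 in sid2 at an adjusted p under 0.05 with no fold limit, 22 to 26 and 20 to 24 without single arrays, and 15 in sid2 when limma tested against 2-fold (5091 of all loci, and 5328 in Col, where 9081 and 9372 were called otherwise); with no replicate block 22 and 22 were called. Except where named, the cause of these shifts was not tested. The number of arrays limits the precision, and no measured background was used here.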
